A study of Mus musculus with 6 samples.

Results

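The transcripts of 10 genes that mark tubular injury and repair were followed in obstructed mouse kidneys with and without Dkk3. The genes were Havcr1, Lcn2, Spp1, Clu, Sox9, Vcam1, Cd44, Hbegf, Cd24a and Anxa2. They were chosen by name with earlier results of these data known, and all 10 were found among the 18421 genes of the authors' deposited table. Whole kidneys came from 3 Dkk3 knockout mice (Dkk3-/-) and 3 wild-type mice (C57Bl/6), making 6 samples, on day 7 after unilateral ureteral obstruction, an operation that blocks the outflow of urine on 1 side and injures the tubules by back pressure. The labels give C57Bl/6 as the background strain of both groups. They do not give age, sex, the exons deleted or the backcrossing of the knockout line, so colony and Dkk3 loss cannot be told apart as sources of a difference. The sample titles give the day after obstruction and not the side of the kidney, so every kidney is taken here as the obstructed one. On this reading the data compare genotypes within injury and hold no comparison with an uninjured kidney. Dkk3, the deleted gene, whose product is secreted and related to Wnt antagonists, was checked first. In the authors' deposited table it fell by 4.43 on the log2 scale (edgeR adjusted p = 2.98e-67), from an implied 44.4 CPM (counts of a transcript per 1000000 counts) in the wild type to 2.06 CPM.

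When a ureter is blocked, epithelial cells of the tubule lose transport functions and switch on a set of injury genes. Some of these encode secreted or shed proteins that are measured as signs of kidney damage, some encode surface proteins that bind dying cells, matrix or leukocytes, and some belong to the repair response, in which surviving cells dedifferentiate and divide. Cells that do not complete repair keep part of this programme, Vcam1 and Spp1 among it.

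None of the 10 markers passed an adjusted p of 0.05 between genotypes in the authors' edgeR test, and 1, Havcr1, had an unadjusted p below 0.05. Of all genes tested 2.06% passed the adjusted threshold and 10.6% the unadjusted one, so that a count of 0 of 10 is not a result about these genes in particular. By the authors' deposited table, 8 of the 10 log2 fold changes were above 0 and 2 below, from -0.19 to 0.40, with a median of 0.04 against 0.01 over all genes. The median size without sign was 0.08 for the markers and 0.09 for the 2006 genes at 100 CPM or more, the level class that holds 8 of the 10. What the data do give is an approximate bound on each marker. The 95% intervals below come from an approximate standard error, the size of the log2 fold change divided by the square root of the authors' likelihood-ratio score. Values per mouse were not analysed here, so the spread between single kidneys is seen only through that error.

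**Figure D1:**
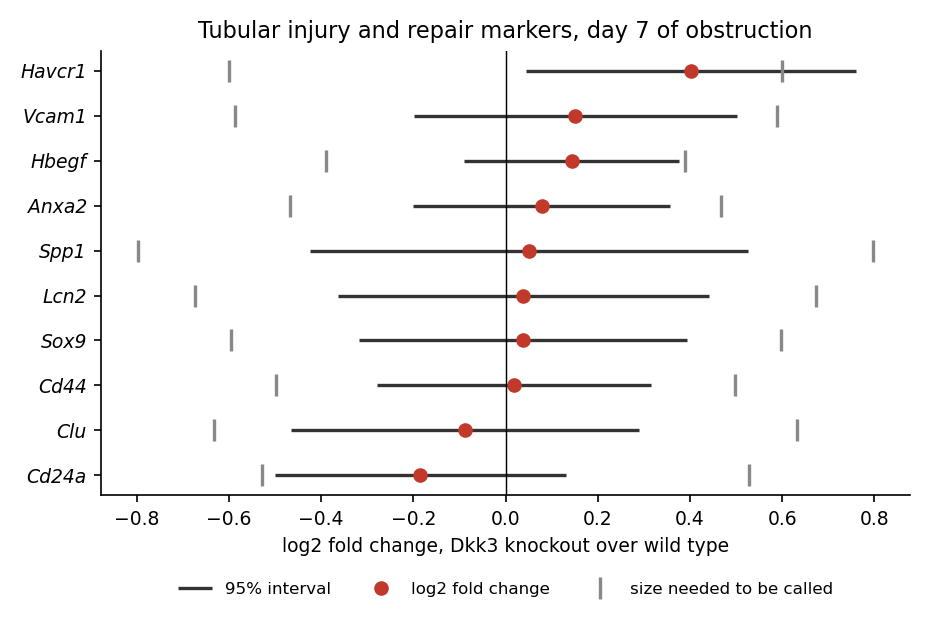
Log2 fold change, Dkk3 knockout over wild type, of the 10 markers (points) with approximate 95% intervals (lines) from 3 mice a group; grey ticks show the size each gene would have needed to pass an adjusted p of 0.05. Every point lies inside its ticks, and the interval of Havcr1 alone leaves out 0.

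The set was abundant in these kidneys. Spp1 had the highest level among the 18421 genes of the authors' deposited table, with an average of 35855 CPM, or 3.59% of all counts. Clu stood at rank 15 with 3355 CPM and Havcr1 at rank 24 with 1931 CPM. These 3 genes are among the 30 most abundant, beside mitochondrially encoded transcripts and tubular genes such as Kap and Umod. None of those 30 genes was called in the authors' edgeR test, and 2 had an unadjusted p below 0.05. The lowest levels were of the transcription factor gene Sox9 (19.9 CPM) and the growth factor gene Hbegf (47.9 CPM). Together the 10 markers took 4.36% of the counts.

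Levels were also divided by the merged length of all annotated exons of a gene in GENCODE vM21. By this measure the order of average levels was Spp1 (21757 CPM per kb), Clu (976), Havcr1 (835), Cd24a (269), Lcn2 (170), Anxa2 (109), Vcam1 (77.5), Cd44 (19.8), Hbegf (9.90) and Sox9 (4.82). The merged length can exceed that of the transcript expressed, so the order is approximate. Whether neighbours in it, such as Clu and Havcr1, differ was not tested, since the transcripts that the authors counted are unknown here.

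**Figure D2:**
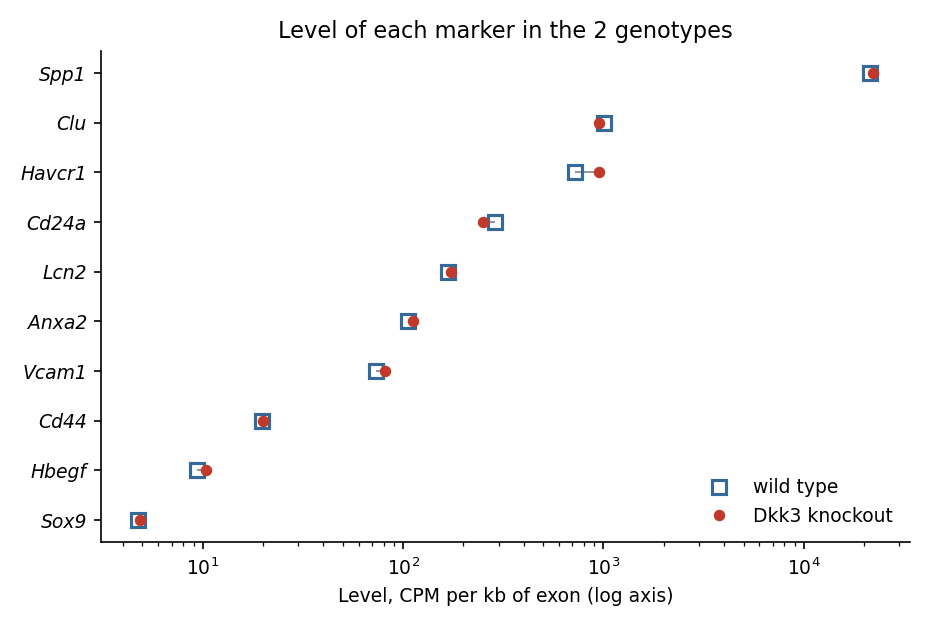
Level of each marker in CPM per kb of exon (log axis) in wild-type kidneys (blue squares) and Dkk3 knockout kidneys (red points), worked out from the average level and fold change of the authors' table for 3 mice a group. The markers span from 4.76 CPM per kb for Sox9 in the wild type to 22139 for Spp1 in the knockout, and within each gene the squares and points nearly coincide, with the widest gap at Havcr1.

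Sequence before the transcription start is shown for the most abundant marker (Spp1), the marker with the smallest p (Havcr1), the secreted marker Lcn2, and Anxa2, whose window holds a match to a factor of the immediate early response. RefSeq windows (GRCm38.p6) were at hand for 5 of the 10 genes, these 4 and Cd44. The starts are those of RefSeq and differ from the gene spans of GENCODE vM21. By those spans the Havcr1 and Lcn2 windows shown lie inside the gene, and the Anxa2 window runs into it. The 250 bases before the start are written 5′ to 3′ on the strand of the gene, with motif matches in capitals.

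Spp1, chr5:104434861-104435110, plus strand, the first of 2 annotated starts: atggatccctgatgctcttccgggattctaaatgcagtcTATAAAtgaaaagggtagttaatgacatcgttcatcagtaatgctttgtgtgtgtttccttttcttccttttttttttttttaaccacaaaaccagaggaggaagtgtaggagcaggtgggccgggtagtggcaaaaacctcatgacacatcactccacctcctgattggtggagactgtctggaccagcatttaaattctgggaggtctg
Havcr1, chr11:46739973-46740222, plus strand, the first of 3 annotated starts: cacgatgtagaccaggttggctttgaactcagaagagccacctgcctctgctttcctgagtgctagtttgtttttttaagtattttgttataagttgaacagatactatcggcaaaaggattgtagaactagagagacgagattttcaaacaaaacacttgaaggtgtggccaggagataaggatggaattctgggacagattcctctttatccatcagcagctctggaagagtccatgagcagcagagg
Lcn2, chr2:32387740-32387989, minus strand: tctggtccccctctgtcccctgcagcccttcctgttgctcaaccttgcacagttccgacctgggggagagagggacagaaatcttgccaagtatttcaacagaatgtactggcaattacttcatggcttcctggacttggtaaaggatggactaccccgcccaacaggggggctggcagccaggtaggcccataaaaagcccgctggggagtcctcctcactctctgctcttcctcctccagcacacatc
Anxa2, chr9:69453433-69453682, plus strand: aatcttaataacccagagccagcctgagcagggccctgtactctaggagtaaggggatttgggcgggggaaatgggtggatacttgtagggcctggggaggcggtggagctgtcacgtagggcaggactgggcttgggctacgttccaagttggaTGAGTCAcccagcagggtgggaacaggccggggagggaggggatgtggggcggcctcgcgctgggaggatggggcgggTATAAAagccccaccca

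Both strands were searched for an NF-kB motif (GGG, any 2 bases, T, any 2 bases, CC), the AP-1 motif TGANTCA, a STAT motif (TTCNNNGAA) and a TATA box (TATAAA). In the Anxa2 window lie TGAGTCA, from base 95 before the start, and TATAAA, from base 17 before it. The Spp1 window shown holds TATAAA from base 211 before the start, and the window of its second start holds none of the 4 motifs. The windows of Lcn2, Cd44 and all 3 Havcr1 starts hold none either. Among all 32851 windows of this length, 15.9% hold the NF-kB motif, 6.75% the AP-1 motif, 7.02% the STAT motif and 12.4% the TATA box. The motifs do not overlap in the windows printed, and a match describes letters only.

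Havcr1 encodes kidney injury molecule 1, a receptor for phosphatidylserine with which tubular cells take up dying neighbours. Its implied level was 1663 CPM in wild-type and 2199 CPM in knockout kidneys, worked out from the average and the fold change. The log2 fold change was 0.40 (1.32-fold) in the authors' deposited table, with an approximate standard error of 0.18, an unadjusted p of 0.0275 and an adjusted p of 0.353 in edgeR's test. The interval runs from 0.04 to 0.76 on the log2 scale, so it leaves out 0 before adjustment for the number of genes tested and reaches 1.69-fold at its upper end. By p the gene stood at rank 1432 of 18421. At its standard error a log2 fold change of 0.60, or 1.52-fold, would have been needed to pass.

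Lcn2 encodes neutrophil gelatinase-associated lipocalin, a secreted protein that binds iron-carrying siderophores. Its implied level was 440 CPM in the wild type and 452 CPM in the knockout. The log2 fold change of 0.04 in the authors' deposited table (standard error 0.21, edgeR adjusted p = 0.994) has an interval from -0.36 to 0.44, which reaches 1.36-fold at its upper end. Neutrophils make Lcn2 as well, and 0 of 13 neutrophil markers passed in edgeR's test (median log2 fold change 0.45). Of the 13, 3 had an unadjusted p below 0.05 (background 10.6% of all genes). The implied sum of those markers was 23.5 CPM in the wild type and 31.7 CPM in the knockout, and their part in the Lcn2 level was not tested.

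Spp1 encodes osteopontin, a secreted phosphoprotein of matrix and urine that binds integrins and CD44. Its implied level was 35224 CPM in the wild type and 36486 CPM in the knockout. The log2 fold change was 0.05 in the authors' deposited table, with an edgeR adjusted p of 0.991. The approximate standard error, 0.24, was the largest of the 10 although Spp1 was the most abundant gene, and it compares with a median of 0.18 for the 101 most abundant genes. Its interval from -0.43 to 0.53 runs from 0.745-fold to 1.44-fold. Macrophages also express Spp1, and none of the 16 macrophage and dendritic cell markers passed in edgeR's test (median log2 fold change 0.50). Of the 16, 8 reached an unadjusted p below 0.05, all higher in the knockout (background 10.6% of all genes in either direction). The implied sum of the 16 markers was 1331 CPM in the wild type and 1899 CPM in the knockout. The part of these cells in the Spp1 level was not tested.

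Clu encodes clusterin, a secreted chaperone of misfolded proteins and lipids. The implied level was 3458 CPM in the wild type and 3252 CPM in the knockout. A log2 fold change of -0.09 in the authors' deposited table (standard error 0.19, edgeR adjusted p = 0.963) leaves an interval from -0.47 to 0.29. Clu and Cd24a were the 2 markers below 0.

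Cd24a encodes a small glycosylated protein anchored in the membrane of epithelial progenitors and of several leukocytes. It was the lowest of the 10 by log2 fold change, at -0.19 in the authors' deposited table (standard error 0.16, edgeR adjusted p = 0.764). The implied levels were 738 CPM in the wild type and 649 CPM in the knockout, a difference of -12.1%. The interval from -0.50 to 0.13 holds 0.

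Vcam1 encodes vascular cell adhesion molecule 1, which holds leukocytes through the integrin of Itga4 and Itgb1 and is made by activated endothelium and by injured proximal tubule cells. Its implied level was 652 CPM in wild-type and 724 CPM in knockout kidneys. The log2 fold change in the authors' deposited table was 0.15 (standard error 0.18, edgeR adjusted p = 0.881), with an interval from -0.20 to 0.50. None of 12 endothelial markers passed in edgeR's test, also without adjustment (median 0.06), and their implied sum was 716 CPM in the wild type and 738 CPM in the knockout.

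Cd44, the gene of the main hyaluronan receptor, was the closest of the 10 to no difference. Its implied levels were 133 and 135 CPM in wild type and knockout, and its log2 fold change was 0.02 in the authors' deposited table, with an interval from -0.28 to 0.32 (edgeR adjusted p = 1.00, rounded). Leukocytes carry Cd44 too. Of 13 T cell markers 9 rose (background 1.17% of all genes called higher). Their implied sum was 59.6 CPM in the wild type and 110 CPM in the knockout. Among them Thy1, at an average log2 CPM of 5.15, stood at 0.43 and did not pass (edgeR adjusted p = 0.568). The part of T cell markers in the Cd44 level was not tested. In bulk tissue, fewer cells of a type and less RNA per cell cannot be told apart.

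Hbegf encodes a membrane-bound ligand of the EGF receptor that is shed after injury. It had the smallest standard error of the 10, 0.12, and so the tightest bound. Its implied level was 45.5 CPM in the wild type and 50.3 CPM in the knockout. The log2 fold change was 0.14 in the authors' deposited table (edgeR adjusted p = 0.757), and the interval from -0.09 to 0.38 reaches 1.30-fold at its upper end. A log2 difference of 0.39, or 1.31-fold, would have passed.

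Sox9, a transcription factor gene that tubular cells switch back on during repair, had implied levels of 19.7 and 20.2 CPM in wild type and knockout. Its log2 fold change of 0.04 in the authors' deposited table (standard error 0.18, edgeR adjusted p = 0.991) has an interval from -0.32 to 0.39. Anxa2 encodes annexin A2, a phospholipid-binding protein that, with its partner S100a10, promotes plasmin formation at the cell surface. It stood at 394 CPM in the wild type and 416 CPM in the knockout, a log2 fold change of 0.08 in the authors' deposited table with an interval from -0.20 to 0.36 (edgeR adjusted p = 0.946). S100a10 itself had a log2 fold change of 0.16 in the authors' deposited table (edgeR adjusted p = 0.757).

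Across the 10 markers the size needed to pass ran from a log2 fold change of 0.39 for Hbegf to 0.80 for Spp1, or from 1.31-fold to 1.74-fold. Differences smaller than these would not have been called with 3 mice a group. The standard errors imply a spread between libraries of a genotype of 0.15 (Hbegf) to 0.30 (Spp1) on the log2 scale, if both genotypes vary alike. This spread rests on the authors' dispersion and was not observed from values per mouse.

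**Figure D3:**
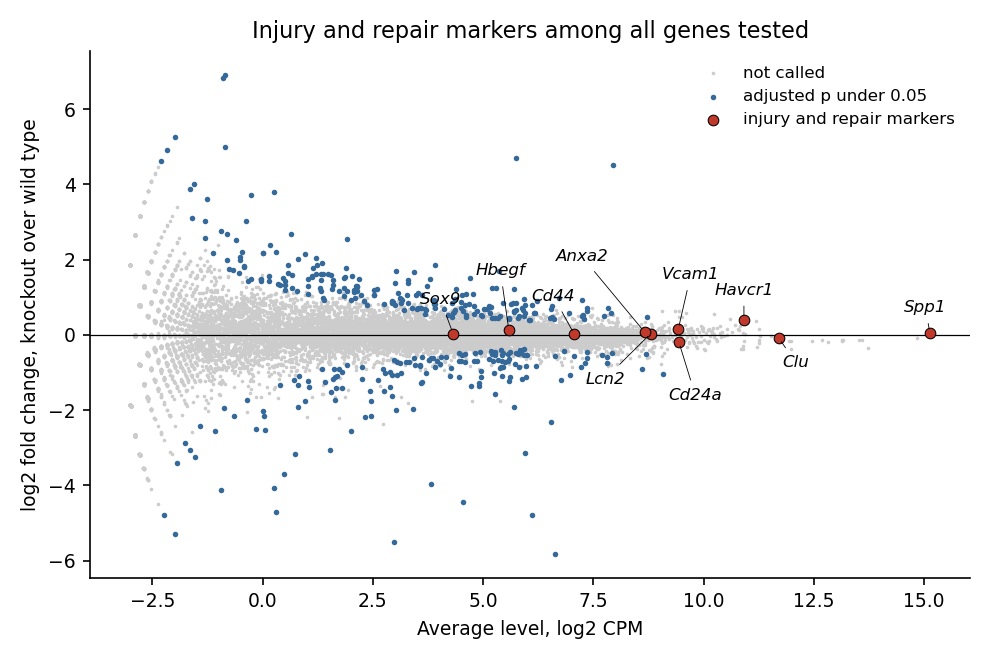
Log2 fold change, knockout over wild type, against average level in log2 CPM for all 18421 genes (grey, not called; blue, adjusted p under 0.05), with the 10 markers in red. The markers lie close to the zero line, most of them at the right, high-level side, where Spp1 is the last point.

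The genes lie on 8 chromosomes, with Havcr1 and Sox9 both on chromosome 11 and Lcn2 and Cd44 both on chromosome 2, and none on chromosome 7 with Dkk3. Of the list genes named in the text, Axl, Ccnd1, Itgal, Tgfb1 and Umod do lie on chromosome 7. Positions are from GENCODE vM21 on GRCm38, the assembly of the mm10 build named in the submitters' processing notes. Havcr1 (ENSMUSG00000040405, plus strand) spans 46735080 to 46779578 on chromosome 11, and Spp1 (ENSMUSG00000029304, plus strand) 104435118 to 104441050 on chromosome 5. Of the stretches of 50 nt, the read length, in annotated transcripts, Cd44, Clu, Hbegf, Lcn2 and Sox9 share none with another gene. Spp1 shares 11.6% with Gm42793, an annotated gene inside it that the table does not list. Havcr1 shares 4.60%, mostly with its relative Timd2 (77 of 2306 stretches), and the rest share 2.75% (Cd24a), 1.35% (Anxa2) and 0.465% (Vcam1). No source used here says how shared and antisense reads were counted, so the levels of the 5 genes with shared stretches are uncertain.

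The receptors, ligands and relatives of the markers were read in 9 lists with 154 distinct genes in the table, of which 8 rose and none fell at an adjusted p of 0.05 in edgeR's test. Their median log2 fold change was 0.14, against 0.01 over all genes. Read against the background, 1.17% of all genes were called higher and 0.89% lower, and 10.6% had an unadjusted p below 0.05. The list counts given above and below are to be read beside these shares. The lists were written with earlier results of these data known. A count above a share can therefore come from the choice of genes and is not a test of the list. When the chi-square reference was replaced by an F distribution (14 degrees of freedom), 2 of the 8 calls were left, Cdkn1a and Timd2, and of the cell type lists 2 T cell, 2 collecting duct, 3 B cell and plasma cell, 0 urothelium, 0 proximal tubule and 0 loop and distal tubule markers were called. Leukocyte genes are among these lists, and T cell markers moved with them as given above. Of the other cell type lists, 3 of 11 B cell and plasma cell markers rose, 1 of 12 loop and distal tubule markers fell, and none of 13 fibroblast and pericyte markers passed in edgeR's test (3 at an unadjusted p below 0.05).

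Of 30 other genes of injured or dedifferentiated epithelium 3 rose and 27 did not pass, with a list median of 0.15. Those that rose in the authors' deposited table were the cell cycle inhibitor gene Cdkn1a (0.80, edgeR adjusted p = 4.18e-09) and 2 fibrinogen chain genes, transcribed in the liver and in injured tubules. Fgb, the beta chain, rose by 0.95 on the log2 scale (standard error 0.27, edgeR adjusted p = 0.0274), from an implied 41.8 CPM to 80.9 CPM, in the authors' deposited table. Fga, the alpha chain, rose by 0.58 (edgeR adjusted p = 0.0320), from an implied 192 CPM to 287 CPM, in the authors' deposited table. The gamma chain gene Fgg stood at 0.53 and missed the threshold (edgeR adjusted p = 0.0515 in the authors' deposited table), which it passed when p was adjusted over genes at 1 CPM or more. Over this list 18 of 30 values were above 0. Before adjustment 9 genes were higher and 4 lower at p below 0.05 in edgeR's test, called genes included. Keratin genes of simple epithelium had values below 0 that did not pass, -0.37 for Krt7, -0.18 for Krt8, -0.15 for Krt18 and -0.47 for Krt19 in the authors' deposited table. The injury keratin gene Krt20 stood at -0.02, and the cell cycle gene Ccnd1 at -0.60 (edgeR adjusted p = 0.127 in the authors' deposited table). Markers of the collecting duct and the urothelium, whose cells carry such keratins, were lower in the same samples. Of 13 collecting duct markers 8 fell (background 0.89% of all genes called lower), and 6 with genes of chromosome 7 left out. The implied sum of the 13 was 728 CPM in the wild type and 472 CPM in the knockout. Of 12 urothelium markers 3 fell, and 2 with genes of chromosome 7 left out. All 12 were below 0 (median -1.59), with sums of 82.4 and 25.2 CPM. The part of both marker sets in the keratin values was not tested.

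The uptake receptors held the relative of Havcr1. Timd2, which encodes a receptor of the same TIM family and lies 28019 bases from Havcr1 on chromosome 11, rose by 0.63 on the log2 scale in the authors' deposited table, with a standard error of 0.13 and an edgeR adjusted p of 1.71e-04. Its implied level went from 130 CPM in the wild type to 200 CPM in the knockout. It was the 1 gene of 17 in this list that passed. It shares 2.33% of its stretches of 50 nt with other genes, and 77 of these 81 stretches are shared with Havcr1. Havcr1 averaged 1931 CPM against 165 CPM for Timd2, so reads from shared stretches could weigh more on Timd2 than that percentage shows. Their part in the Timd2 value was not tested. The TIM family gene Havcr2 of T cells and macrophages had a value of 0.86 (edgeR adjusted p = 0.0737), and Axl, a receptor for bridged phosphatidylserine, 0.37 (edgeR adjusted p = 0.347), in the authors' deposited table. Of the lipocalin receptors, genes Lrp2 (-0.47, edgeR adjusted p = 0.558) and Slc22a17 (-0.14, edgeR adjusted p = 0.848) did not pass in the authors' deposited table. Lrp2, which encodes megalin, also marks the proximal tubule. There 1 of 18 markers fell (background 0.89% of all genes called lower), and the median was -0.43. The implied sum was 22822 CPM in the wild type and 17633 CPM in the knockout. Kap alone gave 15300 and 11992 CPM of these sums and did not pass (edgeR adjusted p = 0.757).

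Of 15 EGF family ligands, receptors and sheddases, the partners of Hbegf, none passed in edgeR's test (list median -0.02). An unadjusted p below 0.05 was reached by 2 of the 15, near the share of all genes (10.6%). These 2 were the receptor gene Erbb3 (0.35, edgeR adjusted p = 0.318) and the ligand gene Btc (-0.43, edgeR adjusted p = 0.389) in the authors' deposited table. Egfr, the receptor gene itself, stood at 0.15 and Egf, a gene of the distal tubule, at -0.42, with an interval from -1.11 to 0.26.

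Among 17 receptors of osteopontin and genes of hyaluronan handling 1 rose, the hyaluronan synthase gene Has1 (2.17, standard error 0.64, edgeR adjusted p = 0.0380 in the authors' deposited table), at an average of only 0.455 CPM. The integrin gene Itga4, whose product binds both osteopontin and VCAM-1, missed the threshold narrowly at 0.75 (edgeR adjusted p = 0.0515 in the authors' deposited table). Among genes at 1 CPM or more only, Itga4 was called and Has1 was not tested. Of 14 leukocyte adhesion genes 1 rose, the integrin gene Itgb2 of leukocytes (0.76, edgeR adjusted p = 0.0286 in the authors' deposited table). Further leukocyte integrin genes, Itgal (0.81, edgeR adjusted p = 0.0586) and Itgb7 (0.83, edgeR adjusted p = 0.0906), did not pass in the authors' deposited table. T cell markers rose in the same samples, as given above, and their part in the integrin values was not tested. Icam1, another adhesion molecule of the immunoglobulin superfamily, stood at 0.12 (edgeR adjusted p = 0.866 in the authors' deposited table).

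No gene passed among 15 of the annexin, S100 and plasminogen activation list (median 0.13) or among 15 transcription factors of nephron development (median -0.00) in edgeR's test, with 2 and 0 of them below 0.05 before adjustment. Sox4, which acts beside Sox9 in the injured tubule, stood at -0.07 (edgeR adjusted p = 0.944 in the authors' deposited table). Of 18 secreted signals of the injured tubule 1 rose (median 0.16). The chemokine gene Ccl2 (0.27, edgeR adjusted p = 0.615) and the growth factor genes Pdgfb (0.29, edgeR adjusted p = 0.339) and Tgfb1 (0.38, edgeR adjusted p = 0.465) did not pass in the authors' deposited table.

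Genes of the NF-kB, STAT3 and AP-1 pathways, which drive several of the markers, had values above 0 for 19 of 19 members, against 9631 of 18421 genes overall. Their median was 0.24, with 8 at an unadjusted p below 0.05 by edgeR. The 1 gene that rose was Osmr, the oncostatin M receptor gene on chromosome 15 (0.45, edgeR adjusted p = 0.0413 in the authors' deposited table). This call was lost when p was adjusted anew without the genes of chromosome 7. The neighbour of Osmr in the pathway, the feedback inhibitor gene Socs3, missed the threshold at 0.46 (edgeR adjusted p = 0.0586 in the authors' deposited table). Members of such a list can vary together and leukocytes express them too, so the count of 19 does not measure the spread between mice.

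**Figure D4:**
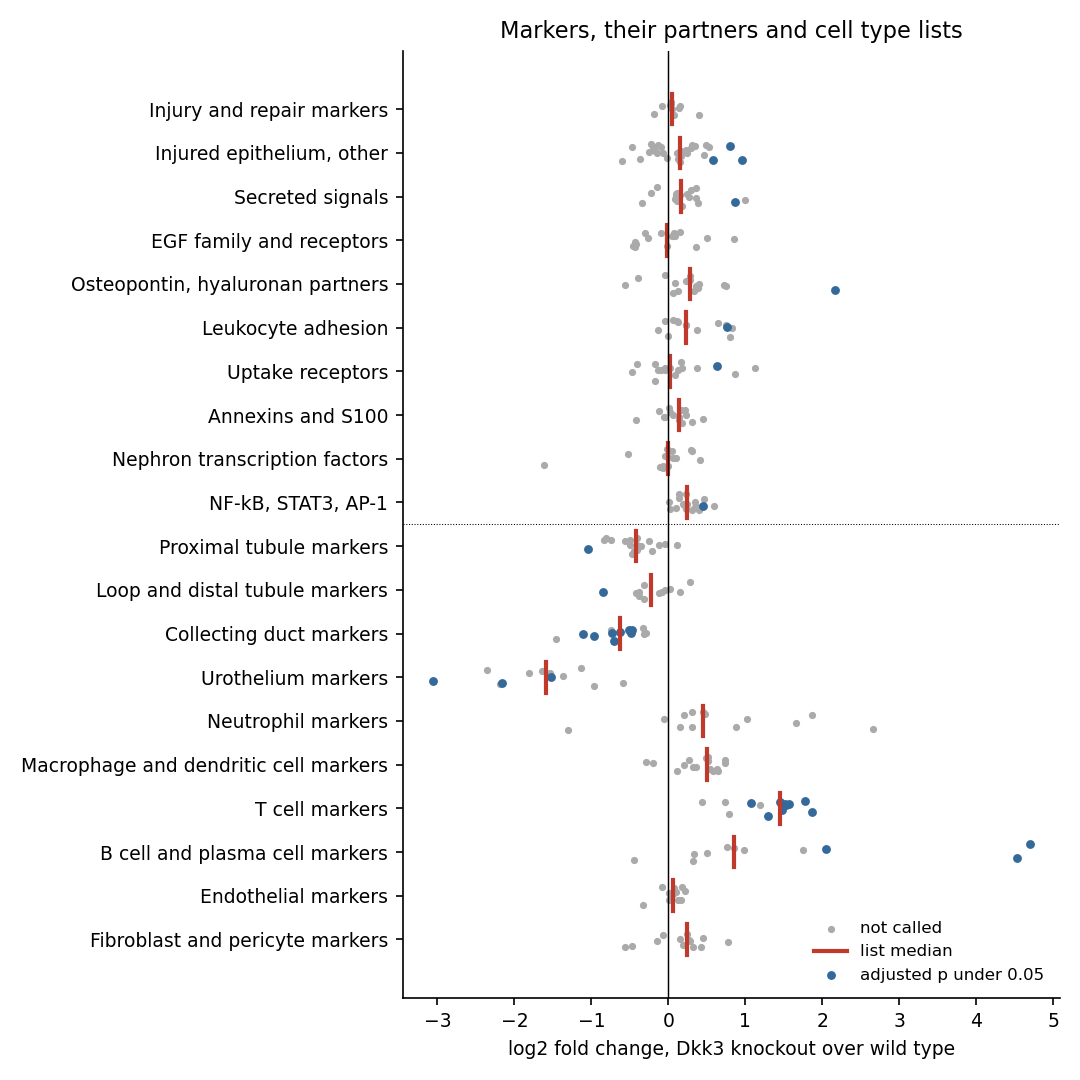
Log2 fold change, knockout over wild type, of each gene (points; blue, adjusted p under 0.05) in the marker set, in 9 lists of partners and pathway genes (above the dotted line) and in 10 cell type lists (below it), with list medians as red bars. The marker set is centred near 0 (median 0.04), while T cell markers lie above 0 (median 1.45) and collecting duct and urothelium markers below (medians -0.62 and -1.59).

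Gene Ontology terms were tested for over-representation by the authors, and 82 of them were on wounding, regeneration, acute inflammation, kidney development and epithelial proliferation. Among those 1 passed an adjusted p of 0.05, response to wounding, with 21 of 670 genes called up and 8 called down (adjusted p = 0.00450 for the up side in the authors' deposited table). None of the 82 passed on the down side, where the smallest p was of the spreading of epidermal cells in wound healing (2 of 11 genes, p = 0.00428, adjusted p = 0.320 in the authors' deposited table). No source used here gives the threshold behind these counts, and the genes of each term were not read. If the threshold was an adjusted p of 0.05, none of the 10 markers is among the called genes. The authors' Wnt-related, Th1-related and Th2-related sheets of 74, 20 and 15 genes hold 0 of the 10 markers.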

How the data were processed

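RNA of 6 kidneys (1 µg each) was read as 50 nt single reads, in pools of 10 over 3 lanes, per the labels. The submitters' notes name mm10 and edgeR; no source used here gives the aligner, counting, strand or low-count filter. Per the file headers, the authors' deposited table lists log2 fold change and average log2 CPM for 18421 genes, with the score of a likelihood-ratio test, its p-value and FDR. The deposited p-value matched a chi-square distribution, and the FDR Benjamini-Hochberg, within a relative 0.0001 for all. The deposited Gene Ontology sheet holds, as other values, numbers of genes per term, with p-values. The sign was read as knockout over wild type from Dkk3. Library depth is unknown.

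The planned quasi-likelihood fit needs values per sample, so the authors' test was used, and replicates could not be compared. Implied levels came from average CPM and fold change, assuming equal groups, and levels per kb from merged GENCODE vM21 exons. The 95% normal intervals take the authors' dispersion as known. Members and lists were chosen with earlier results of these data known. Named were the 10 members, called list genes, up to 3 others of smallest p, and some partners, keratins and relatives chosen after their values were seen. Single values of some called genes are not reported here. Of 308 list entries 303 were in the table. Calculations were tested on simulated statistics. Alternatives were a threshold of 0.1, an F distribution (14 degrees of freedom, of which 10 were assumed), an inflation factor of 1.09, at least 1 CPM, at least 1.5-fold, no chromosome 7, centring and, added after seeing the data, unadjusted p. Python 3.11.15, pandas 2.3.3, numpy 2.4.6, scipy 1.17.1 and matplotlib 3.10.9 were used.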

Additional observations from a re-analysis of the deposited data

How the results depend on the processing

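The count of markers called stayed at 0 of 10 with a threshold of 0.1, the F distribution, the inflation factor, genes at 1 CPM or more, no chromosome 7 and a fold change of at least 1.5, and was 1, Havcr1, at an unadjusted p under 0.05. With the F distribution the unadjusted p of Havcr1 was 0.0447 and its interval 0.01 to 0.79. The upper ends for Lcn2 and Hbegf were then 0.48 and 0.40 on the log2 scale. Centring moved each log2 fold change by 0.00971, less than the implied spread between libraries, and the median of the 10 to 0.03. Of the 8 partner and pathway genes called, 2 (Cdkn1a and Timd2) were called with the F distribution and 5 with the inflation factor, which left out Fga, Has1 and Osmr. Among genes at 1 CPM or more 9 were called, with Fgg and Itga4 added and Has1, at 0.455 CPM, not tested. Without chromosome 7 the count was 7, Osmr, a gene of chromosome 15, being lost through the new adjustment. At 1.5-fold or more it was 6, without Fga and Osmr. It was 14 at a threshold of 0.1 and 39 at an unadjusted p under 0.05. Over all genes the 379 calls became 578 at a threshold of 0.1, 81 with the F distribution, 242 without chromosome 7 and 1957 at an unadjusted p under 0.05. No paired analysis was possible because the values used hold no column per sample, and leaving out each mouse could not be run for the same reason. Depth per library is unknown.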

Other observations

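Genes near the markers gave a few calls. Within 500 kb of the 10 markers lie 132 other genes of the authors' deposited table, of which 5 were called, against 2.06% of all genes. Beside Timd2 they include Fam78a near Lcn2 (log2 fold change 0.79, edgeR adjusted p = 0.0490), Pcdha11 near Hbegf (0.92, edgeR adjusted p = 0.0416) and 2610035D17Rik near Sox9 in the authors' deposited table. The last, a gene 256135 bases from Sox9, fell by 1.62 on the log2 scale (standard error 0.34, edgeR adjusted p = 2.90e-04 in the authors' deposited table) at an average of 7.60 CPM, while Sox9 stood at 0.04. The window was chosen after the data were seen.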
